A study of Mus musculus with 24 samples.

Results

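The transcription factors that pattern the dorsal telencephalon were followed by RNA sequencing in mouse neural stem and progenitor cells (NSPCs) with 2, 1 or 0 functional copies of *Kat6a*. The 9 genes were chosen by symbol from the 26411 genes counted in each library: *Otx1*, *Otx2*, *Emx1*, *Emx2*, *Dmrta2*, *Dmrt3*, *Pax6*, *Lhx2* and *Nr2f1*. NSPCs were isolated from the dorsal telencephalon of *Kat6a*+/+ (wild-type), *Kat6a*+/- and *Kat6a*-/- embryos at E12.5 (embryonic day), on a C57BL/6 background, from intercrosses of heterozygous parents. The mutant allele was a germline null allele lacking several exons, so every cell of the embryo carried it. Each genotype was profiled while proliferating with FGF2 and EGF on uncoated plastic. The other condition was 3 days of differentiation as an adherent layer in low serum without growth factors. Per the study, proliferating wild-type cells floated as neurospheres, heterozygous colonies were smaller and tended to attach, and null cells mostly attached with few floating colonies. Growth form and genotype therefore cannot be told apart in proliferating cells. There were 4 libraries for each of the 6 groups, 24 in all. Of the 9 genes, 7 passed the filter on low counts in both conditions and could be tested, and *Emx1* and *Dmrt3* did not.

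The telencephalon is divided into fields by transcription factors expressed in overlapping gradients, which position cortical areas and separate the cortex from the ventral ganglionic eminences. *Otx1* and *Otx2* encode orthodenticle homeodomain proteins that specify the forebrain and midbrain. The empty spiracles homologues *Emx1* and *Emx2*, the doublesex-related *Dmrta2* and *Dmrt3* and the LIM-homeodomain gene *Lhx2* act in the medial and dorsal pallium, *Pax6* in the lateral cortex, and the nuclear receptor gene *Nr2f1* (COUP-TFI) in caudal and lateral cortex. KAT6A is a histone lysine acetyltransferase found at active genes.

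Libraries held 7826660 to 40838203 assigned reads in proliferating and 14836869 to 23692125 in differentiating NSPCs. Levels are given in CPM, read counts relative to library size, scaled once over the 24 libraries. *Kat6a* itself was at 373 to 409 CPM in proliferating *Kat6a*+/+, 333 to 368 CPM in *Kat6a*+/- and 334 to 389 CPM in *Kat6a*-/- libraries. These counts cover the whole gene, and reads outside the deleted exons do not check the genotype labels. The summed level of 5 astrocyte markers was 36.3 to 48.2 CPM in wild-type and 79.4 to 196 CPM in null proliferating libraries, and 517 to 907 CPM and 287 to 3041 CPM in differentiating libraries. Summed microglial markers were 1.26 to 1.41 CPM in wild-type and 6.38 to 8.25 CPM in null proliferating libraries, with *C1qa* at 0 in each library and 4 of the 5 markers under 1 CPM in every library of either group. In differentiating null cells 4 of 4 meningeal and mesenchymal markers tested were higher than in wild type (*Col1a1*, *Col1a2*, *Foxc1* and *Pdgfrb*), with 7 markers summing to 32.5 to 66.1 CPM in wild-type and 43.4 to 276 CPM in null libraries. Of 7 neural stem cell markers 5 were lower and 2 higher there, with sums of 7289 to 9322 and 9342 to 13865 CPM, and of 6 neuron markers 3 were lower and 1 higher, with sums of 525 to 696 and 459 to 771 CPM. These counts stand beside 27.7% lower and 26.7% higher of all 13339 genes tested in that comparison, at a false discovery rate below 0.05. The part of these cell types in the results below was not tested, and in bulk RNA fewer cells of a type and less RNA per cell cannot be told apart.

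Several genes of the embryonic dorsal telencephalon were at or near 0. *Neurog1*, a cortical proneural gene, and *Wnt3a*, a cortical hem signal, had no read in any of the 24 libraries. *Emx1*, a marker of the cortical lineage, had 7 reads in all, spread over 3 of 24 libraries, with 4 of them in *Kat6a*-/- differentiating replicate 4. *Dmrt3* had 2 reads in all, in 2 of 24 libraries. A count of 0 allows up to 3 reads, or 0.0759 to 0.387 CPM depending on the library, and covers counting error only. The ventral and oligodendrocyte factor *Olig2*, a gene picked after values were seen, was at 976 ± 39.3 CPM (SD, n = 4) in wild-type proliferating NSPCs. Of 14 listed ventral telencephalic factors, only 5 passed the filter on low counts in proliferating NSPCs. The dorsal members *Emx2*, *Pax6* and *Nr2f1* had means of 48.0, 42.2 and 56.1 CPM in the wild-type proliferating group. The regional identity of the cells was not tested.

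The detected and nearly silent members of the same family are set side by side by the sequence upstream of their starts, since *Emx2* and *Dmrta2* were expressed and *Emx1* and *Dmrt3* hardly at all. The 250 bases before each RefSeq start on build GRCm38.p6 are printed 5′ to 3′, with CpG dinucleotides in capitals.
Emx2 (chr19:59458440-59458689, plus strand): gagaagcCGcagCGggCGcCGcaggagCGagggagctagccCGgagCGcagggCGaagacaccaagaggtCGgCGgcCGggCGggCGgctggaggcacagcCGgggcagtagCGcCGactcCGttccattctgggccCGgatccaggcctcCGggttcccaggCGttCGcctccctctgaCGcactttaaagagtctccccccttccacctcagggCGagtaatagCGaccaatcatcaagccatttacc
Emx1 (chr6:85187681-85187930, plus strand): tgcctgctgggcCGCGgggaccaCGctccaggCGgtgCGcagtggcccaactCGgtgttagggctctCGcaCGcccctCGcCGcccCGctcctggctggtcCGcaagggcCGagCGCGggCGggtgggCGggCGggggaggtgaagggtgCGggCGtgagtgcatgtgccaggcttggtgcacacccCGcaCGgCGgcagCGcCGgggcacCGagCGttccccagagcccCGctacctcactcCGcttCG
Dmrta2 (chr4:109977775-109978024, plus strand): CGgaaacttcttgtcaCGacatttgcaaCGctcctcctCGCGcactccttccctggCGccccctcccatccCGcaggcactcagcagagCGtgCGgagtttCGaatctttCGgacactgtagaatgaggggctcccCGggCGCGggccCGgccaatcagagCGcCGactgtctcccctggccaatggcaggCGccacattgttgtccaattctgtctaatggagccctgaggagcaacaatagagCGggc
Dmrt3 (chr19:25610287-25610536, plus strand): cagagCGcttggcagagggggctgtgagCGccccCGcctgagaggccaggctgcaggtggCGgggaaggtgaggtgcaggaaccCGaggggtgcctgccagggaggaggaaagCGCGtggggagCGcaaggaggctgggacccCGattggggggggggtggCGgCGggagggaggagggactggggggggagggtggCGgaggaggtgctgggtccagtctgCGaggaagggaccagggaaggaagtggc
These windows held 24 (*Emx2*), 30 (*Emx1*), 19 (*Dmrta2*) and 13 (*Dmrt3*) CpG dinucleotides, compared with a median of 6 over 32851 promoter windows of the same length. At least as many CpGs were found in 12%, 5.94%, 19.7% and 31.5% of all windows, respectively, so the nearly silent *Emx1* had the most CpG-rich window of these 4 and the nearly silent *Dmrt3* the least. RefSeq windows were held for 8 of the 9 genes, not for *Otx1*. The letters TAATCC or their reverse complement GGATTA, a bicoid-type homeodomain motif, were searched on both strands and were found in 1 of 4 *Otx2* windows, in no window of the other 7 genes, and in 6.25% of all windows. The palindrome TAATTA, a general homeodomain motif, was found in 2 of 4 *Otx2* windows, in none of the other 7 genes, and in 4.84% of all windows. These matches describe letters only.

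In wild-type proliferating NSPCs the 7 detected genes ranged over about the same order of magnitude when compared per length. *Emx2* (18.5 ± 5.17 CPM per kb, SD, n = 4) and *Nr2f1* (17.6 ± 2.25 CPM per kb) were highest, with overlapping libraries. *Otx1* (10.7 ± 1.18 CPM per kb), *Dmrta2* (9.78 ± 1.46), *Pax6* (8.86 ± 0.406) and *Lhx2* (8.14 ± 0.442) followed, with overlapping libraries between neighbours in this order, and *Otx2* was lowest at 3.39 ± 1.15 CPM per kb. The members had between 45 and 2474 reads in a wild-type proliferating library, and *Otx2* had the fewest. The plot of levels by library shows the 7 genes in each of the 6 groups.

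**Figure D1:**
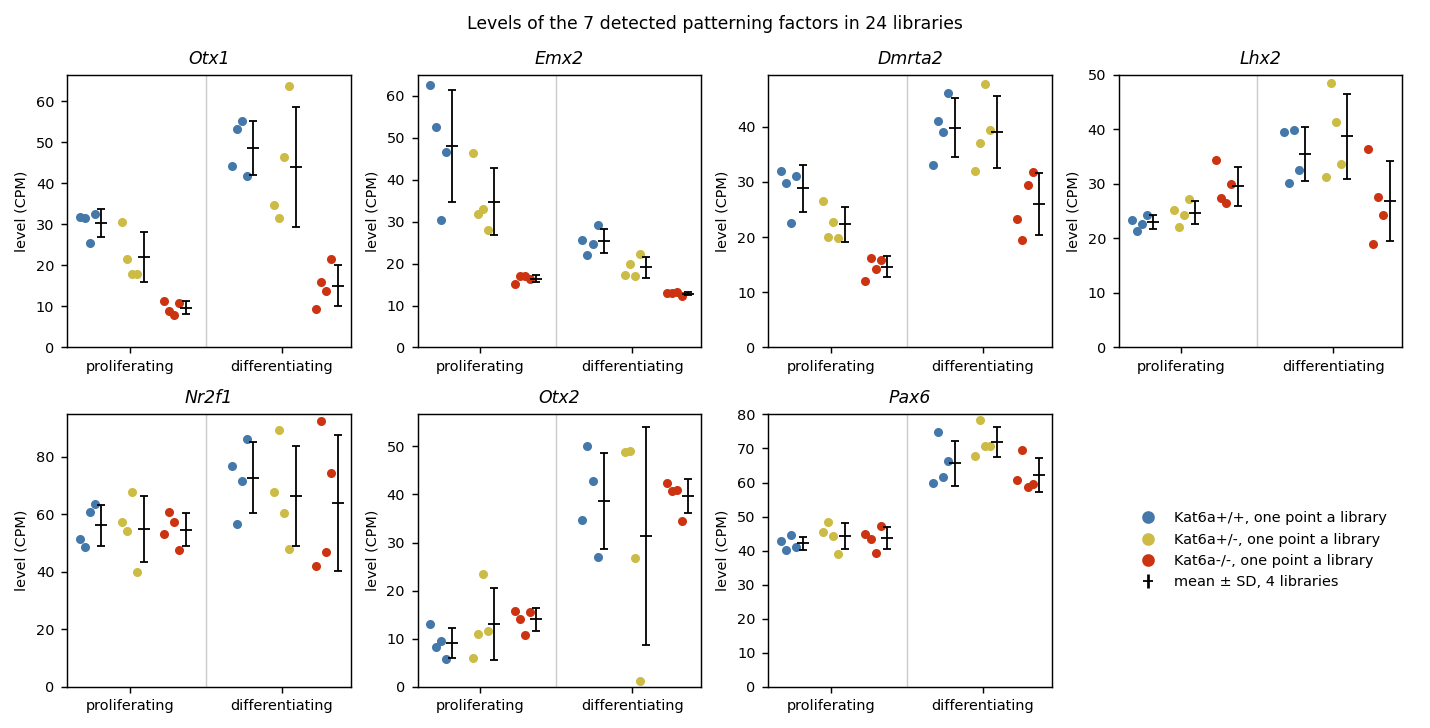
Level in CPM (vertical axis from 0) of each detected patterning factor in proliferating and differentiating NSPCs, 1 point for each library, coloured by genotype, with the mean ± SD of 4 libraries beside the points. *Otx1*, *Emx2* and *Dmrta2* points of the 4 *Kat6a*-/- libraries lie below those of the 4 *Kat6a*+/+ libraries in both conditions.

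To ask which of these factors depend on KAT6A in proliferating cells, *Kat6a*-/- and *Kat6a*+/+ NSPCs were compared. Loss of both alleles was accompanied by lower *Otx1*, *Emx2* and *Dmrta2* RNA and by slightly higher *Lhx2* RNA. Of the 7 genes tested, 3 fell and 1 rose at a false discovery rate (FDR) below 0.05, beside 30.0% of the 12276 protein-coding genes tested (13.8% lower and 16.2% higher). The median log2 fold-change was 0.01 over the 7 genes and -0.0045 over all genes. In the same comparison 17.6% of genes had all 4 null libraries below all 4 wild-type libraries, as 3 of the 7 did, and 13.7% had them all above, as *Lhx2* did.

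*Otx1* (gene ID 18423; chr11:21944764-21952897, minus strand, build GRCm39) was read at 31.8, 31.6, 25.3 and 32.5 CPM in the wild-type and at 11.3, 8.76, 7.99 and 10.8 CPM in the null libraries of proliferating NSPCs. The groups did not overlap, and the lowest wild-type library was replicate 3. The level in null cells was 35.4% of wild type (95% interval 26.4% to 47.3%), a log2 fold-change of -1.50 (SE 0.20, FDR = 0.00017, limma). *Emx2* (chr19:59446804-59453789, plus strand) was at 62.6, 52.5, 30.5 and 46.7 CPM in the wild-type libraries and at 15.2, 17, 17.1 and 16.4 CPM in the null libraries. The wild-type libraries differed from one another by more than the null libraries did, and the groups did not overlap. *Emx2* fell by 1.35 on the log2 scale (SE 0.21, FDR = 0.000641, limma), to 39.3% of wild type.

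*Dmrta2* (chr4:109835202-109840884, plus strand), which is needed for the cortical hem and pallial progenitors, was at 32.0, 29.7, 22.5 and 31.1 CPM in wild-type and at 12.1, 16.2, 14.2 and 15.9 CPM in null proliferating libraries. It fell to 54.2% of wild type (log2 fold-change -0.88, SE 0.14, FDR = 0.000612, limma). *Lhx2* (chr2:38229293-38259759, plus strand), which acts as a cortical selector gene, went the other way. Its level was 23.4, 21.4, 22.6 and 24.4 CPM in wild-type and 34.3, 27.3, 26.5 and 30.0 CPM in null libraries. *Lhx2* rose to 131% of wild type (log2 fold-change 0.39, SE 0.10, FDR = 0.00992, limma). With litter as a fixed term the *Lhx2* estimate was 0.35 and missed the threshold (FDR = 0.092).

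The other 3 genes did not pass the test in proliferating NSPCs. *Pax6* (chr2:105499234-105530952, plus strand) was at 40.3 to 44.6 CPM in wild-type and 39.2 to 47.2 CPM in null libraries, with a log2 fold-change of 0.08 and a 95% interval from -0.09 to 0.25. *Nr2f1* (chr13:78337092-78348578, minus strand) had a log2 fold-change of 0.01 with an interval from -0.26 to 0.28. *Otx2* (chr14:48894099-48911276, minus strand), at 5.71 to 13.1 CPM in wild-type and 10.7 to 15.9 CPM in null libraries, had the widest interval, from -0.34 to 1.14 around 0.40. The intervals exclude a fall as large as that of *Otx1*, *Emx2* or *Dmrta2* for each of these 3 genes.

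The same comparison in differentiating NSPCs gave lower RNA for the same 3 genes and, less firmly, for *Lhx2* and *Nr2f1*. At FDR below 0.05, 5 of the 7 genes fell and 0 rose, beside 54.4% of the 13339 genes tested (27.7% lower and 26.7% higher). The median log2 fold-change was -0.42 over the 7 genes and -0.02 over all genes. All 4 null libraries lay below all 4 wild-type libraries for *Otx1*, *Emx2* and *Dmrta2*, and for 14.7% of all genes tested. This fit weighted libraries by quality, which gave *Kat6a*-/- replicate 3 a share of 69.0% among the null libraries and replicate 2 a share of 4.22%.

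*Otx1* in differentiating NSPCs was at 44.3, 53.3, 55.0 and 41.8 CPM in wild-type and at 9.29, 15.8, 13.7 and 21.5 CPM in null libraries, with no overlap. Its level in null cells was 28.2% of wild type (log2 fold-change -1.83, SE 0.18, FDR = 1.19e-05, limma). *Emx2* was at 25.7, 22.0, 24.8 and 29.1 CPM in wild-type libraries and at 12.9, 13.0, 13.2 and 12.3 CPM in null libraries. The 4 null libraries lay within 0.927 CPM of one another. *Emx2* fell by 0.96 on the log2 scale (SE 0.09, FDR = 6.11e-06, limma), to 51.6% of wild type.

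*Dmrta2* was at 33.1, 41.0, 39.1 and 46.1 CPM in wild-type and at 23.3, 19.5, 29.3 and 31.8 CPM in null differentiating libraries. Its log2 fold-change was -0.42 (SE 0.13, FDR = 0.0173, limma), and the highest null library was close to the lowest wild-type library. The call was lost with sex as a term (log2 fold-change -0.37, FDR = 0.180), without *Kat6a*-/- replicate 1 (-0.64, FDR = 0.139) and without *Kat6a*-/- replicate 3 (-0.78, FDR = 0.101). By reads from the Y chromosome, 3 of 4 wild-type and 1 of 4 null embryos were male in each condition.

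*Lhx2* was at 39.5, 30.1, 39.9 and 32.6 CPM in wild-type and at 36.4, 19.0, 27.7 and 24.3 CPM in null differentiating libraries, and the groups overlapped through null replicate 1. The log2 fold-change was -0.42 (SE 0.13, FDR = 0.0197, limma). *Nr2f1* was at 77.0, 56.5, 71.5 and 86.3 CPM in wild-type and at 42.1, 92.4, 47.1 and 74.4 CPM in null libraries, where replicate 2 was above each wild-type library. Its fitted log2 fold-change was -0.57 (SE 0.16, FDR = 0.00826, limma) with the quality weights and -0.24 (FDR = 0.519) without them. Without *Kat6a*-/- replicate 3 it was -0.06 (FDR = 0.936), and without replicate 1 it was -0.13 (FDR = 0.820). Without *Kat6a*+/+ replicate 1 it was -0.51 (FDR = 0.0517). Each of the *Lhx2* and *Nr2f1* calls was lost under 7 of 9 alternative settings, with log2 fold-changes from -0.46 to -0.31 for *Lhx2* and from -0.67 to -0.07 for *Nr2f1*. The *Lhx2* call was also lost without *Kat6a*+/+ replicate 1 (-0.33) or 3 (-0.32) and without *Kat6a*-/- replicate 1 (-0.71) or 3 (-0.64).

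**Figure D2:**
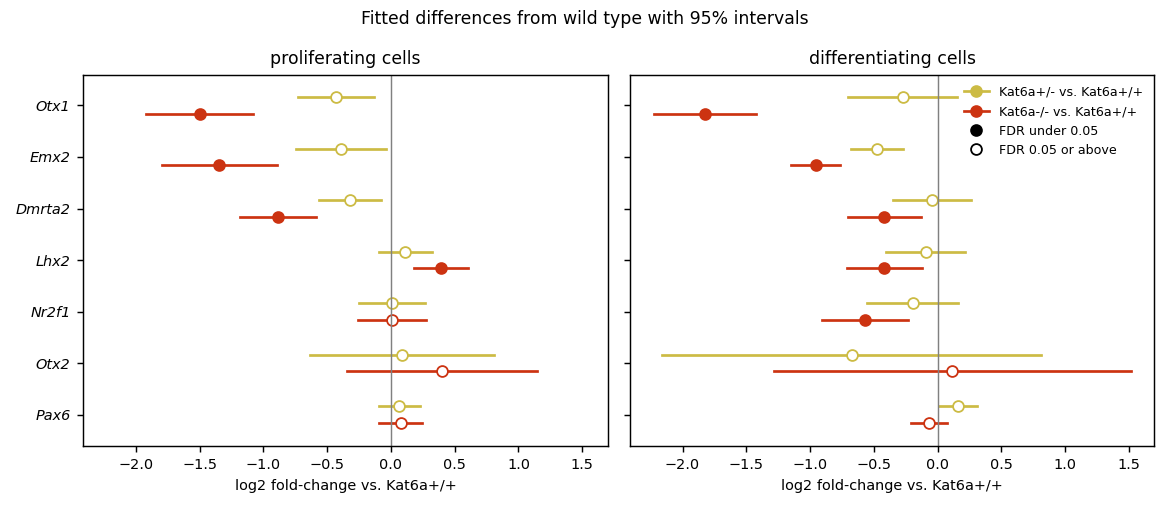
Fitted log2 fold-change from *Kat6a*+/+ (horizontal axis) with its 95% interval for *Kat6a*+/- and *Kat6a*-/- NSPCs in proliferating (left) and differentiating (right) cells, filled where FDR was below 0.05. The null estimates of *Otx1*, *Emx2* and *Dmrta2* are filled and below 0 in both conditions, that of *Lhx2* is above 0 on the left and below 0 on the right, and no heterozygous estimate is filled.

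*Pax6* and *Otx2* did not pass the test in differentiating NSPCs. *Pax6* was at 59.7 to 74.7 CPM in wild-type and 58.8 to 69.5 CPM in null libraries (log2 fold-change -0.07, 95% interval -0.21 to 0.07). *Otx2* was at 27.0 to 50.1 CPM in wild-type and 34.5 to 42.4 CPM in null libraries (log2 fold-change 0.12, interval -1.28 to 1.51), an interval wide enough to hold a change of more than 2-fold in either direction.

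The *Otx* pair thus stood in a different proportion in null cells, which is given as a description since it follows from the *Otx1* difference. In wild-type proliferating NSPCs *Otx1* made up 76.1 ± 6.72% (SD, n = 4) of the summed *Otx1* and *Otx2* level per length, and in null cells 39.8 ± 1.80%. In differentiating NSPCs the share was 55.0 ± 3.80% in wild-type and 26.4 ± 8.30% in null cells. The heterozygous share was 62.5 ± 16.9% and 59.6 ± 27.8% in the 2 conditions, and both genes varied between these libraries. *Otx1* in *Kat6a*+/- differentiating libraries was at 34.6, 31.5, 46.3 and 63.7 CPM, highest in replicate 4. *Otx2* in *Kat6a*+/- differentiating libraries was at 48.8, 49.0, 26.7 and 1.28 CPM. The lowest library, replicate 4, had 19 reads of *Otx2* and none of the anterior forebrain gene *Six3*. *Six3* was picked after values were seen, and its reads in the other libraries are not given here. The plot of the pair per length shows the *Otx1* bars falling in null cells while the *Otx2* bars overlap between genotypes.

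**Figure D3:**
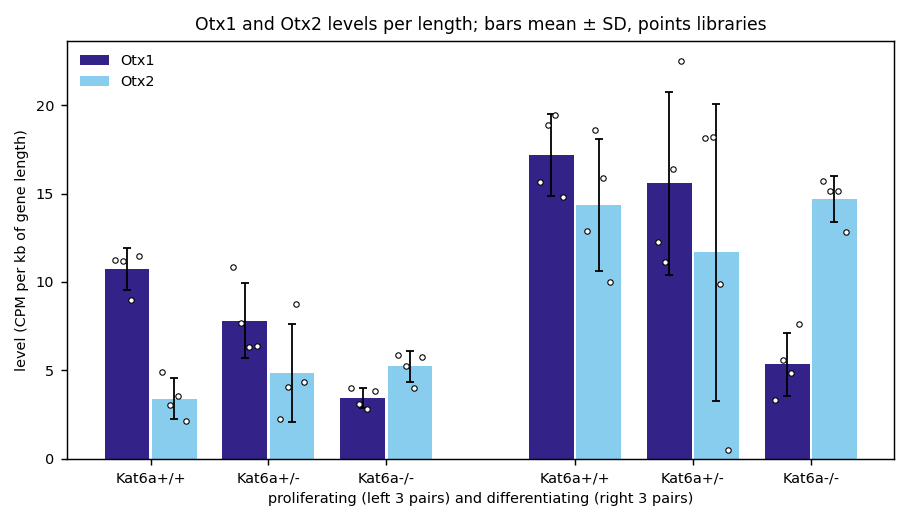
*Otx1* and *Otx2* levels in CPM per kb of gene length (vertical axis from 0) by genotype and condition, bars giving the mean, error bars the SD of 4 libraries and points the libraries. *Otx1* was above *Otx2* in wild-type proliferating cells (10.7 and 3.39 CPM per kb) and below it in null differentiating cells (5.34 and 14.7 CPM per kb).

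Loss of 1 allele was examined by comparing *Kat6a*+/- with *Kat6a*+/+ NSPCs. None of the 7 genes was called in either condition, and with all libraries limma called 0 genes (0% of 12276 in proliferating and 0% of 13339 in differentiating NSPCs). At an unadjusted p below 0.05 limma had 912 genes (7.43%) and 1926 genes (14.4%), respectively, edgeR called 0 genes in either condition at FDR below 0.05, and DESeq2 called 28 and 8. In differentiating NSPCs limma called 301 genes without *Kat6a*+/- replicate 3 and 146 without *Kat6a*+/+ replicate 2. In proliferating NSPCs *Otx1* was at 30.7, 21.7, 17.9 and 18 CPM in heterozygous libraries, with a log2 fold-change of -0.43 (unadjusted p = 0.00825, FDR = 0.483, limma). *Emx2*, at 46.3, 31.8, 33 and 28 CPM, had -0.39 (FDR = 0.635), and *Dmrta2*, at 26.5, 20.0, 22.8 and 19.9 CPM, had -0.32 (FDR = 0.524). These 3 heterozygous means lay between those of wild-type and null cells, but the heterozygous and wild-type libraries overlapped for each gene. An intermediate mean was not particular to them. It also held for *Otx2* (9.14, 13.0 and 14.0 CPM in wild-type, heterozygous and null cells), *Lhx2* (22.9, 24.7 and 29.5) and *Nr2f1* (56.1, 54.8 and 54.7). It did not hold for *Pax6* (42.2, 44.3 and 43.7). The share of all genes with such a mean is not given here.

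In differentiating heterozygous NSPCs *Emx2* was at 17.3, 19.9, 17 and 22.3 CPM, with a log2 fold-change of -0.47 (95% interval -0.68 to -0.27, unadjusted p = 0.000268, FDR = 0.136, limma). The FDR of *Emx2* was 0.0308 without *Kat6a*+/+ replicate 2 and 0.0320 without *Kat6a*+/- replicate 3. *Otx1* had a log2 fold-change of -0.27 (interval -0.70 to 0.16) and *Dmrta2* of -0.04 (interval -0.35 to 0.26). *Pax6* was at 67.8 to 78.2 CPM in heterozygous libraries, with a log2 fold-change of 0.16 (FDR = 0.319).

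Compared with heterozygous cells, *Kat6a*-/- proliferating NSPCs had lower *Otx1* (log2 fold-change -1.07, FDR = 0.00421), *Emx2* (-0.95, FDR = 0.0104) and *Dmrta2* (-0.56, FDR = 0.0180), 3 of 7 genes beside 14.8% of all genes tested, 6.30% in that direction (limma). The *Emx2* call was lost without *Kat6a*-/- replicate 4 (-1.005, FDR = 0.0699), and leaving out replicate 1 of either genotype ended the *Dmrta2* call (-0.52, FDR = 0.0575 for the heterozygous and -0.49, FDR = 0.0621 for the null library). The null libraries lay below the heterozygous libraries without overlap for these 3 genes, and for 6.07% of all genes. In differentiating NSPCs *Otx1* (-1.55, FDR = 0.000402), *Emx2* (-0.48, FDR = 0.00417) and *Pax6* (-0.23, FDR = 0.0333) were lower in null than in heterozygous cells, 3 of 7 genes beside 37.5% of all genes tested, 18.5% in that direction. *Otx1*, *Emx2* and *Dmrta2* did not overlap between these groups, nor did 9.48% of all genes in that direction. With litter as a fixed term the *Emx2* (-0.50, FDR = 0.0996) and *Pax6* (-0.26, FDR = 0.221) calls were lost, and the *Pax6* call was lost under 7 of 9 alternative settings. Without *Kat6a*-/- replicate 1 the *Emx2* (-0.50, FDR = 0.209) and *Pax6* (-0.14, FDR = 0.715) calls were lost, and none of the 7 genes was called without *Kat6a*-/- replicate 3 (*Otx1* at -1.54, FDR = 0.0623).

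The 7 genes were also compared between conditions in wild-type cells. Of these, 5 rose and 1 fell in differentiating relative to proliferating *Kat6a*+/+ NSPCs, beside 72.9% of the 13590 genes tested (36.7% higher and 36.2% lower), a share near that of the 7. *Otx2* rose to 369% of its proliferating level (log2 fold-change 1.88, SE 0.73, FDR = 0.0253), *Otx1* to 158%, *Pax6* to 155%, *Lhx2* to 154% and *Dmrta2* to 136%. The *Otx2* call was lost without *Kat6a*+/+ proliferating replicate 1 (2.27, FDR = 0.0568) or replicate 2 (1.83, FDR = 0.0553). *Emx2* was the gene that fell, to 52.5% (log2 fold-change -0.93, SE 0.16, FDR = 2.14e-05, limma). *Nr2f1* did not pass the test (log2 fold-change 0.39, FDR = 0.108). RNA was purified with a different kit in each condition, so kit and condition cannot be told apart.

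An interaction term over all 24 libraries was used to test whether null minus wild-type differences varied with the condition. Of the 7 genes only *Lhx2* was called, at -0.82 on the log2 scale (SE 0.24, 95% interval -1.31 to -0.32, FDR = 0.0251, limma), beside 13.9% of genes tested (7.58% in that direction). *Lhx2* rose by 0.39 in proliferating null cells and had -0.42 in differentiating null cells. With litter as a fixed term the interaction was -0.87 and missed the threshold (FDR = 0.0665). *Emx2* had the next lowest p (interaction 0.58, FDR = 0.187), and *Otx1* had -0.08 with an interval from -0.90 to 0.74.

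Litter and genotype were partly confounded, and 2 litters, 4633 and 4746, held both wild-type and null embryos in each condition. Within litter 4633, the null minus wild-type difference in log2 CPM was -1.30 in proliferating and -2.14 in differentiating NSPCs for *Otx1*, -0.90 and -0.91 for *Emx2*, and -0.66 and -0.86 for *Dmrta2*. Within litter 4746 it was -1.96 and -1.58 for *Otx1*, -1.42 and -1.11 for *Emx2*, and -1.10 and -0.64 for *Dmrta2*. The 3 genes were thus lower in null embryos of both litters and both conditions. *Lhx2* differed by 0.43 and 0.12 in proliferating and by -0.59 and -0.23 in differentiating NSPCs in the 2 litters. These values rest on 1 wild-type and 1 or 2 null embryos a litter and have no test. They come from the same libraries as the fits above. The null embryo of litter 4746, and the wild-type and 1 null embryo of litter 4633, gave libraries in both conditions. The 2 conditions are therefore not separate evidence.

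**Figure D4:**
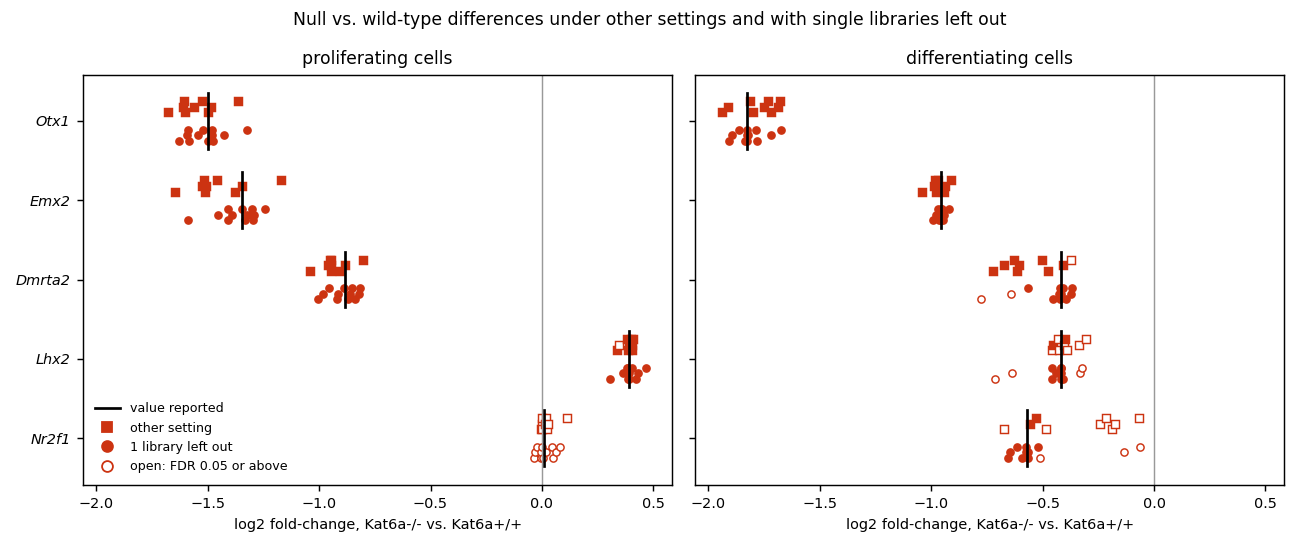
Log2 fold-change of *Kat6a*-/- vs. *Kat6a*+/+ NSPCs (horizontal axis) for the 5 genes called in either condition, in the fit reported (black line), under 9 other settings (squares) and with each of 12 libraries left out (circles), open where FDR was 0.05 or above. *Otx1* and *Emx2* are filled throughout in both panels, *Dmrta2* and *Lhx2* on the left except for 1 open *Lhx2* square, and most *Lhx2* and *Nr2f1* squares on the right are open.

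For 4 of the 7 genes a known noncoding gene on the opposite strand was looked up in the GENCODE vM39 annotation of GRCm39. Each overlaps its partner there, and the annotation was not searched for further overlapping genes. *Emx2os* shares 418 exonic bases with *Emx2*, *A830082K12Rik* shares 1013 with *Nr2f1* and *Otx2os1* shares 168 with *Otx2*, while *Pax6os1* shares none with *Pax6* exons. Whether reads were counted by strand was not stated, so reads from the shared bases cannot be assigned to either partner. *Emx2os* was at 8.54 ± 1.62 CPM (SD, n = 4) in wild-type and 5.38 ± 1.78 CPM in null proliferating NSPCs (exact permutation test, two-sided, p = 0.05714, adjusted p = 0.1143 over 4 tests). *A830082K12Rik* was at 8.96 ± 2.28 and 17.2 ± 2.70 CPM in the same groups (exact permutation p = 0.02857, the smallest that 4 against 4 allows, adjusted p = 0.1143), where *Nr2f1* had a log2 fold-change of 0.01. In differentiating NSPCs the exact permutation p was 0.1714 for *Emx2os* and 0.3714 for *A830082K12Rik*. *Otx2os1* had at most 2 reads and *Pax6os1* at most 4 reads in a library.

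Other transcription factors of the telencephalon were called in both directions in null cells. Of 12 listed factors, 9 were tested in each condition. The counts of this and the next lists stand beside 30.0% of all genes called in proliferating (13.8% lower and 16.2% higher) and 54.4% in differentiating null cells (27.7% lower and 26.7% higher). In proliferating NSPCs 3 rose and 3 fell, with a median log2 fold-change of 0.12, and in differentiating NSPCs 2 rose and 5 fell, with a median of -0.31. *Nr2f2* (COUP-TFII), the close relative of *Nr2f1*, rose by 3.18 in proliferating and 2.54 in differentiating cells on the log2 scale (FDR = 0.000367 and 0.00381, limma), whereas *Nr2f1* had 0.01 and -0.57. *Lef1*, an effector of WNT signalling, fell by 2.64 and *Zbtb20*, a hippocampal factor, rose by 1.40 in proliferating cells. In differentiating cells *Nr2e1* (*Tlx*), a stem cell nuclear receptor gene, fell by 0.96.

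Patterning signals, 20 listed, had 2 higher and 0 lower of 7 tested in proliferating null cells (median log2 fold-change 0.05) and 5 higher and 2 lower of 11 tested in differentiating null cells (median 0.69), beside 30.0% and 54.4% of all genes called. The growth factor gene *Tgfa* rose by 2.14 and *Wnt7b* by 1.19 in proliferating cells. In differentiating null cells *Wnt7b* went the other way, and it and *Wnt5a* were the 2 signals called lower. *Shh* rose by 2.76, *Bmp6* by 2.74 and *Fgf18* by 2.69 on the log2 scale in differentiating cells, from wild-type means of 0.685, 10.1 and 1.85 CPM. Of 18 listed factors of more caudal brain and eye, 2 of 4 tested rose in proliferating null cells (*Gbx2* by 1.02 and *En2* by 0.94). In differentiating null cells 4 of 6 rose, among them *Irx1* by 1.84 (SE 0.71, FDR = 0.0442), *Gbx2* by 1.08 (FDR = 0.00288) and *Irx3* by 0.90 (FDR = 0.032, limma). In both conditions 0 fell, and the medians were 0.17 and 0.99. The genes of these lists were not followed 1 by 1 under other settings or with libraries left out.

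Ventral telencephalic factors, 14 listed, had 1 higher and 2 lower of 5 tested in proliferating null cells (median log2 fold-change -0.76), where *Ebf1* fell by 0.76. In differentiating null cells 1 was higher and 9 were lower of 10 tested (median -3.37), beside 27.7% of all genes lower. Of those with an average log2 CPM above 0, *Sp9* fell by 5.41, *Dlx2* by 3.11 and *Dlx1* by 3.07, interneuron factors at 8.83, 7.21 and 4.91 CPM in wild-type cells. Of 6 genes known to need *Pax6* in the cortex, 1 of 2 tested rose in proliferating null cells, the radial glial gene *Fabp7* by 0.44. In differentiating null cells 3 of 4 tested fell, among them *Eomes* (*Tbr2*), the intermediate progenitor gene, by 4.29 and *Fabp7* by 0.90, while *Pax6* itself had -0.07.

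The genes whose profile over the 24 libraries lay nearest to each member were found by the root mean square difference in centred log2 CPM among 13589 other genes. *Otx1* was nearest to *Meis2* (0.370, against a spread of 0.874 of *Otx1* about its own mean) and *Tenm3* (0.408). *Emx2* was nearest to *Khdrbs3* (0.252) and *Ebf3* (0.260), and *Dmrta2* to *Cdkn1b* (0.202) and *Sema6c* (0.221). *Lhx2* was nearest to *Zfp827* (0.189) and *Tfdp2* (0.206), *Nr2f1* to *Tuba1c* (0.20) and *Coil* (0.201), *Pax6* to *Cant1* (0.123) and *Abcb10* (0.127), and *Otx2* to *Wipf3* (0.822), with *Riiad1* next. No member was among the 2 nearest genes of another, but *Dmrta2* ranked 17 of 13589 for *Otx1* (0.494). In the other direction *Otx1* ranked 1756 for *Dmrta2*. The smallest difference between members, 0.313 for *Pax6* and *Lhx2*, was close to their own spreads of 0.327 and 0.334. *Lhx2* ranked 2226 for *Pax6*, and *Pax6* ranked 422 for *Lhx2*. These distances include the difference between conditions and have no test.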

How the data were processed

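Total RNA (200 ng per library) was sequenced from poly(A)-selected, strand-marked libraries. Per the labels and the study's methods, the authors aligned reads to mm39 with Rsubread and assigned them to RefSeq genes with featureCounts; versions and the strand setting are not given in the sources used here. The deposited values are raw read counts per gene and library. Here 20951 protein-coding genes, without *Xist* and Y-linked genes, were filtered by filterByExpr and scaled by TMM. Proliferating libraries, and all 24 together, were fitted with limma-voom with litter as a random block (correlation 0.287 and 0.00365), and differentiating libraries with limma-trend with library quality weights and a prior count of 2. FDR is Benjamini-Hochberg over all genes tested, called below 0.05. R 4.3.3, limma 3.58.1, edgeR 4.0.16 and DESeq2 1.42.0 were used, and fits were tested on simulated data. Levels per length use the gene length in the count tables. Members were named by symbol. From other lists up to 3 called genes with the largest log2 fold-change per condition, among those with a fitted average log2 CPM above 0, were named, and *Six3*, *Olig2*, *Neurog1* and *Wnt3a* were added after values were seen. Some genes that this rule names are not reported here. The genes and lists were chosen with earlier results of these data known. Replicates came from separate embryos, 6 of which gave both a proliferating and a differentiating library. *Kat6a*+/+ replicate 2 is labelled with litter 4364 in differentiating and 4346 in proliferating cells, which were taken as 2 litters. Whether they are 1 embryo is not known, and only the fit over all 24 libraries would differ. No 2 libraries agreed within sampling noise (chi-square per degree of freedom at least 5.00). Alternatives were other tests, scalings, filters, blocks and leaving out each library.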

Additional observations from a re-analysis of the deposited data

Results flagged for a closer look

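*Otx1* in *Kat6a*+/+ proliferating replicate 3, at 25.3 CPM, stood apart below the other 3 wild-type libraries, which were at 31.6 to 32.5 CPM. On the scale of log2(CPM + 0.5) the gap was 0.885 of the range of the group, above the limit Dixon gives for 4 libraries. It was 1 of 42 groups tested, and chance flags about 1 in 20. Without this library *Otx1* in proliferating null cells remained below wild type at a log2 fold-change of -1.59 (FDR = 0.000358). The cause was not tested.

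The effect of losing both *Kat6a* alleles on *Lhx2* differed between conditions by -0.82 on the log2 scale (SE 0.24, FDR = 0.0251, limma interaction term). *Lhx2* was 22.9 ± 1.25 CPM (SD, n = 4) in wild-type and 29.5 ± 3.52 CPM in null proliferating NSPCs, and 35.5 ± 4.94 and 26.8 ± 7.31 CPM in differentiating NSPCs. All 4 null libraries were above wild type in proliferating cells, and the groups overlapped in differentiating cells.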

How the results depend on the processing

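*Otx1* and *Emx2* were called lower in null than in wild-type NSPCs in both conditions under all 9 alternative settings and without each of the 12 libraries, *Otx1* at -1.68 to -1.32 in proliferating and -1.94 to -1.67 in differentiating cells. *Dmrta2* was called in all of these in proliferating cells. In differentiating null vs. wild-type NSPCs 5 of the 7 genes were called, but 3 with edgeR, with DESeq2, without the low-count filter, with litter as a fixed term, without quality weights and with limma-voom, 2 with sex as a term, and 2 to 5 with 1 library left out. Null vs. heterozygous differentiating cells had 3 calls, 1 with litter as a fixed term and 0 (without *Kat6a*-/- replicate 3) to 6 (without *Kat6a*-/- replicate 2) with 1 library left out. Heterozygous vs. wild-type differentiating cells had 0 to 1, and the interaction had 0 with litter as a fixed term and 1 to 2 with 1 library left out, the second being *Emx2* without *Kat6a*+/+ proliferating replicate 3. The causes were not tested.

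Over all genes, null vs. wild type had 3686 calls in proliferating cells (1936 with litter fixed, 2317 without *Kat6a*+/+ replicate 1) and 7258 in differentiating cells (3097 without quality weights, 3244 with edgeR, 4076 with DESeq2, 1785 with litter fixed, 939 without *Kat6a*-/- replicate 3 and 9505 without replicate 2). Null vs. heterozygous cells had 1813 (951 with edgeR, 696 without *Kat6a*-/- replicate 4) and 5007 (386 with litter fixed, 243 without *Kat6a*-/- replicate 3), heterozygous vs. wild-type differentiating cells 0 (301 without *Kat6a*+/- replicate 3, 146 without *Kat6a*+/+ replicate 2), and the interaction 1895 (3520 without *Kat6a*-/- differentiating replicate 2).

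Same-numbered libraries did not deviate together (median r -0.0126 in proliferating and -0.172 in differentiating cells), so replicate numbers do not pair them. With the number as a replicate block 4 and 5 genes were called in null vs. wild type, 0 and 0 in heterozygous vs. wild type, 3 and 4 in null vs. heterozygous (*Dmrta2* added), 6 with differentiation and 1 in the interaction.

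Only uncalled values changed sign. In proliferating cells *Nr2f1* went to -0.000320 (edgeR), -0.000653 (DESeq2) and -0.0021 (litter fixed) in null cells, to -0.0144, -0.0145 and -0.0030 (no litter block) in heterozygous cells, and to -0.0047 (no filter) and -0.036 (litter fixed) in null vs. heterozygous cells. There *Otx2* went to -0.044 (litter fixed) and -0.107 (sex) in heterozygous cells, and *Pax6* to -0.000110 (DESeq2) and -0.063 (quality weights) in null vs. heterozygous cells. In differentiating heterozygous vs. wild-type cells *Lhx2* went to 0.118 (edgeR), 0.127 (DESeq2), 0.104 (litter fixed), 0.234 (sex), 0.107 (no weights) and 0.108 (limma-voom), *Otx2* to 0.52 (litter fixed) and 0.023 (sex), and *Nr2f1* to 0.034 (sex). *Otx2* went to -0.22 (litter fixed) in null vs. heterozygous cells. With 1 library left out, proliferating ranges that crossed 0 were -0.0379 to 0.0789 (*Nr2f1*, null vs. wild type), -0.32 to 0.57 (*Otx2*) and -0.0725 to 0.12 (*Nr2f1*, heterozygous vs. wild type), and -0.0236 to 0.75 (*Otx2*), -0.0504 to 0.0570 (*Pax6*) and -0.12 to 0.0902 (*Nr2f1*, null vs. heterozygous). In differentiating cells they were -0.00164 to 0.25 (*Otx2*) and -0.14 to 0.0694 (*Pax6*, null vs. wild type), -1.07 to 0.0415 (*Otx2*), -0.19 to 0.19 (*Dmrta2*) and -0.21 to 0.16 (*Lhx2*, heterozygous vs. wild type), -0.47 to 0.12 (*Nr2f1*, null vs. heterozygous) and -0.26 to 0.0389 (*Otx1*, interaction). At this depth *Emx1* and *Dmrt3* could not be tested.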
